A study of Mus musculus with 7 samples.

Results

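Cyp4 fatty acid hydroxylases are cytochrome P450 enzymes of the endoplasmic reticulum. In this series, 9 Cyp4 genes of mouse liver were selected by gene symbol: Cyp4a10, Cyp4a12a, Cyp4a12b, Cyp4a14, Cyp4a31, Cyp4a32, Cyp4f14, Cyp4f15 and Cyp4v3. A probe set, the group of array probes that are summarized into 1 value, was taken when every symbol in its platform annotation was among the 9 genes. This gave 8 probe sets, out of 35556 on the array, for 8 of the 9 genes. The only probe set of Cyp4v3 also carries the symbol Klkb1 and was left out. For each gene the brightest probe set over the 7 arrays was the main measure. For Cyp4a10, Cyp4a31 and Cyp4a32 this was 1 shared probe set that carries all 3 symbols, so the 8 genes have 6 distinct brightest probe sets. Cyp4a10 and Cyp4a31 each also have a probe set of their own, and these are given as well.

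Liver RNA was measured in 3 Trpm6-deficient mice and 4 control mice, with 1 array per mouse. The Trpm6-deficient mice were Trpm6 Δ17/Δ17;Sox2-Cre animals, which lack exon 17 of Trpm6, a gene for a Mg2+ channel fused to a kinase. By the cross the study describes, 1 allele came from the father with the exon already deleted, and the floxed allele from the mother was deleted by the father's Sox2-Cre transgene, which is active in the epiblast. Extraembryonic tissues therefore keep the exon on the mother's allele alone. The control mice were Trpm6 fl/+ littermates with 1 floxed allele and no Cre, so Cre was present in only 1 of the groups and its own effect cannot be told apart from that of the deletion. All mice were males on a C57BL/6 background aged 12 to 13 weeks. Trpm6-deficient 1 and 3 and controls 3 and 4 were 13 weeks old, and the other 3 mice were 12 weeks old. Values are log2 expression after RMA, a method that corrects background, normalizes arrays and summarizes probes, and a difference of 1 is a 2-fold difference in signal.

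The main reaction of Cyp4 enzymes places a hydroxyl group on the last carbon of a fatty acid, called omega-hydroxylation. The omega-hydroxy acid is oxidized further to a dicarboxylic acid by alcohol and aldehyde dehydrogenases and is then shortened in peroxisomes. Arachidonic acid is another substrate, and its product 20-HETE acts on blood vessels and on salt transport in the kidney. Cyp4f enzymes also inactivate leukotrienes, the lipid mediators of inflammation. In rodent liver the genes Cyp4a10 and Cyp4a14 are classical targets of PPARA, the nuclear receptor that senses fatty acids and binds DNA together with a retinoid X receptor. Cyp4a12a and its near-identical copy Cyp4a12b are known as genes of male mouse liver and kidney, and Cyp4a12a encodes the main 20-HETE synthase of the male mouse. Cyp4a10 and Cyp4a14 are known to be more abundant in females than in males of several mouse strains.

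Upstream sequence is shown for 1 Cyp4a and 1 Cyp4f gene, to set the Cyp4a cluster beside the Cyp4f cluster, whose values are described apart. In the RefSeq promoter table of assembly GRCm38.p6, 4 of the 9 genes had a window (Cyp4a32, Cyp4f14, Cyp4f15 and Cyp4v3). The bases upstream of the annotated gene start are given for Cyp4a32 (plus strand, chr4:115600688-115600926, 239 bases, 42.3% G and C) and for Cyp4f15 (plus strand, chr17:32685409-32685630, 222 bases, 58.6% G and C). Capitals mark ATTGG, which is the promoter element CCAAT read on the other strand.
Cyp4a32: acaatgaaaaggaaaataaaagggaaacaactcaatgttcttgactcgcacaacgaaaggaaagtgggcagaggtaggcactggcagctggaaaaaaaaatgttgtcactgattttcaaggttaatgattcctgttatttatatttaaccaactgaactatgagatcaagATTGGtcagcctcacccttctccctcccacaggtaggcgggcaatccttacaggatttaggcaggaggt
Cyp4f15: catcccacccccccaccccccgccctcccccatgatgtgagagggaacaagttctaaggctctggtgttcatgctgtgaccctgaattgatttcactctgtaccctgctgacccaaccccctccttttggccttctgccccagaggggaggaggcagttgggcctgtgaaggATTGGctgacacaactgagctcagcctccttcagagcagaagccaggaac
Both stretches hold 1 ATTGG, and 37.4% of 32851 RefSeq windows of 250 bases before to 50 bases after a start hold CCAAT on either strand. The element was chosen after the sequences had been seen. The DR1 element, which PPARA binds with its partner, was searched on both strands as AGGTCA followed by 1 base and a second AGGTCA. It occurred in 0.0396% of all windows and in none of the 7 windows of the 4 genes. With any base at the fourth position of each copy (AGGNCA) it occurred in 0.381% of all windows and again in none of the 7. These letters not being in the window says nothing about elements farther from the start. At such low shares almost any 7 windows would hold none, so their absence sets these genes apart in no way. Several of the 7 windows belong to Cyp4f14, and Cyp4a10 and Cyp4a14 had no window.

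The 7 arrays had medians between 6.43 and 6.48 and lower quartiles between 5.05 and 5.11. The targeted gene Trpm6 was at 5.37 to 5.50 in Trpm6-deficient livers and at 5.50 to 5.53 in controls (log2 difference -0.05, adjusted p = 0.882 from limma). It is not known from the files whether its probe set reads exon 17, and its signal was below the median of every array. For both reasons this value does not check the labels. The hepatocyte markers Alb and Apoa1 were at 14.36 to 14.43 and 14.07 to 14.20 in Trpm6-deficient livers, against 14.31 to 14.43 and 14.16 to 14.22 in control livers. Summed on a linear scale, the 11 measured hepatocyte markers reached 155839 to 161826 in Trpm6-deficient livers and 148702 to 163000 in controls. No gene of the 8 marker lists of liver cell types passed limma's test, and at an unadjusted p of 0.05 or less these were 1 of 11 hepatocyte, 3 of 9 stellate cell and 1 of 5 cholangiocyte markers (all higher) and 1 of 2 erythroid markers (lower). The erythroid marker that was lower was Alas2, an enzyme of heme synthesis in red cell precursors. Alas2 was at 9.95, 8.85 and 9.19 in Trpm6-deficient livers, against 10.72, 11.17, 11.07 and 10.98 in control livers. The 2 erythroid markers summed to 578 to 1106 on the linear scale in Trpm6-deficient livers and to 1804 to 2417 in controls. The other measured erythroid marker, Slc4a1, was at 6.86 to 6.87 in Trpm6-deficient livers and at 6.82 to 6.93 in controls. Its log2 difference was -0.01 (unadjusted p = 0.898 from limma), so the lower sum comes from Alas2. Some markers, such as Cxcr2 (3.75 to 4.08) and Cftr (4.52 to 4.68), lay below the lower quartile of every array. The stellate cell marker with the largest difference was Acta2. It was at 8.03, 9.42 and 9.95 in Trpm6-deficient livers, against 7.75, 8.03, 7.63 and 7.58 in control livers. The median log2 difference was 0.01 over the stellate cell list, -0.29 over the Kupffer cell list and -0.20 over the sinusoidal endothelial list. Control 1 was the lowest control for every sinusoidal endothelial marker and for every Kupffer cell marker but Marco. On the linear scale the Kupffer cell markers summed to 4304 to 8209 in controls and to 5261 to 5649 in Trpm6-deficient livers. The part of these marker differences in the Cyp4 values was not tested. In whole liver, fewer cells of a type and less RNA per cell cannot be told apart.

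In Trpm6-deficient livers Cyp4a14, Cyp4a10 and Cyp4a31 lay above the controls on average, Cyp4a12a and Cyp4a12b lay far below them, and Cyp4f14 and Cyp4f15 averaged within 0.10 log2 units of them. None of the 8 member probe sets reached an adjusted p of 0.1 in limma's test, a threshold that 46 of all probe sets (0.129%) met. At an unadjusted p of 0.05 or less, 2 of the 6 brightest probe sets were higher, 2 were lower and 2 were neither. Over all probe sets the same threshold was met by 3.85% in the higher and 3.03% in the lower direction. The groups did not overlap in 1 higher and 2 lower members of the 6, against 2.94% and 2.38% of all probe sets. With the own probe sets of Cyp4a10 and Cyp4a31 counted too, 4 of 8 were higher and 2 were lower at the unadjusted threshold, and the groups did not overlap in 2 of each direction. The 4 higher probe sets read closely related genes and share the Cyp4a10, Cyp4a31 and Cyp4a32 symbols among 3 of them, so they are not separate observations. The 2 lower probe sets, of Cyp4a12a and its near-identical copy Cyp4a12b, are not separate observations either. Whether probes of 1 Cyp4a gene also read its relatives was not examined.

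**Figure D1:**
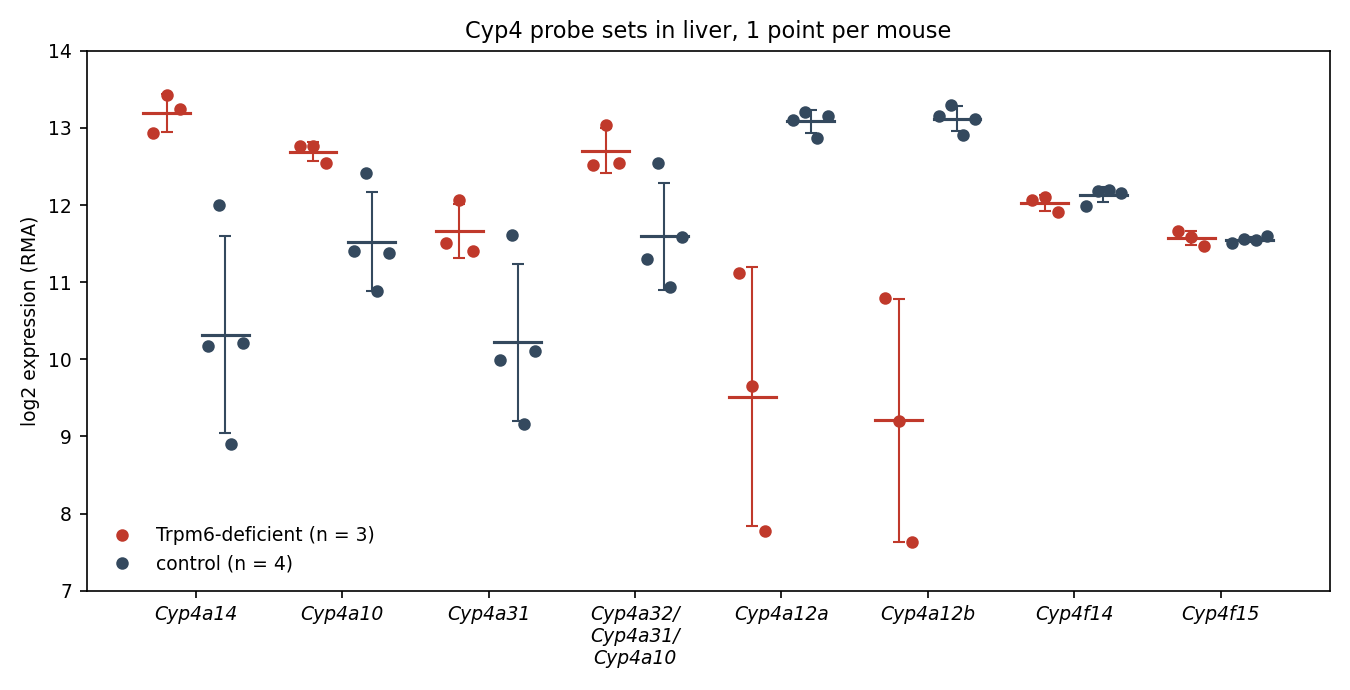
Log2 expression (RMA) of the 8 Cyp4 probe sets with 1 point per mouse, Trpm6-deficient (n = 3, red) left of control (n = 4, blue), horizontal lines for the means and bars for the SD. Cyp4a14 spreads from 8.90 to 12.00 among the controls, Cyp4a12a and Cyp4a12b spread from 7.77 to 11.12 and from 7.63 to 10.79 among the Trpm6-deficient livers, and the groups lie side by side for Cyp4f14 and Cyp4f15.

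Cyp4a14, a fatty acid hydroxylase that PPARA agonists induce strongly in mouse liver, had log2 values of 12.93, 13.42 and 13.24 in Trpm6-deficient livers 1 to 3, against 10.17, 12.00, 8.90 and 10.21 in control livers 1 to 4. All 3 Trpm6-deficient livers lay above all 4 controls, with 0.93 log2 units between the lowest Trpm6-deficient and the highest control value. The means were 13.20 ± 0.25 (SD, n = 3) in Trpm6-deficient and 10.32 ± 1.27 (SD, n = 4) in control livers. This is a log2 difference of 2.88 (SE 0.67, 95% interval 1.26 to 4.50), or 7.34-fold, with an unadjusted p of 0.00445 and an adjusted p of 0.415 from limma with Benjamini-Hochberg adjustment. Among the increases over all probe sets it ranked 10 by size. The spread was on the control side, where the highest liver was 8.57-fold above the lowest, whereas the Trpm6-deficient livers lay within 1.4-fold of each other. The SD of Cyp4a14 among controls was larger than that of 99.9% of probe sets.

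The shared probe set of Cyp4a32, Cyp4a31 and Cyp4a10 read 12.52, 13.04 and 12.55 in Trpm6-deficient livers, against 11.30, 12.55, 10.94 and 11.58 in controls. Control 2 lay just above Trpm6-deficient 1, and the other 3 controls lay below all Trpm6-deficient livers. The means were 12.70 ± 0.29 (SD, n = 3) in Trpm6-deficient and 11.59 ± 0.69 (SD, n = 4) in control livers, a log2 difference of 1.11 (SE 0.38, 95% interval 0.19 to 2.03; unadjusted p = 0.0249, adjusted p = 0.65 from limma). Without Trpm6-deficient 2 or 3, or without control 1, 3 or 4, its unadjusted p lay between 0.0504 and 0.0882.

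Cyp4a10, the other classical PPARA target of the cluster, read 12.76, 12.76 and 12.55 in Trpm6-deficient livers on its own probe set, against 11.41, 12.42, 10.89 and 11.38 in controls. The groups did not overlap, but only 0.13 log2 units separated Trpm6-deficient 3 from control 2. The means were 12.69 ± 0.12 (SD, n = 3) in Trpm6-deficient and 11.53 ± 0.64 (SD, n = 4) in control livers, a log2 difference of 1.17 (SE 0.34), or 2.24-fold (unadjusted p = 0.0126, adjusted p = 0.579 from limma). Cyp4a31, a close relative of Cyp4a10, read 11.51, 12.06 and 11.41 in Trpm6-deficient livers on its own probe set, against 9.99, 11.61, 9.16 and 10.11 in controls. Control 2 again lay among the Trpm6-deficient livers. The log2 difference of Cyp4a31 was 1.44 (SE 0.55), or 2.72-fold (unadjusted p = 0.0376, adjusted p = 0.689 from limma), and its unadjusted p exceeded 0.05 without any 1 of the 3 Trpm6-deficient livers and without control 1, 3 or 4.

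Cyp4a12a, the 20-HETE synthase of male mice, had log2 values of 11.12, 9.65 and 7.77 in Trpm6-deficient livers, against 13.10, 13.21, 12.87 and 13.16 in controls. Cyp4a12b had log2 values of 10.79, 9.20 and 7.63 in Trpm6-deficient livers, against 13.15, 13.30, 12.91 and 13.11 in controls. In both genes every Trpm6-deficient liver lay below every control, by at least 1.75 log2 units for Cyp4a12a and 2.12 for Cyp4a12b. Cyp4a12a averaged 9.51 ± 1.68 (SD, n = 3) in Trpm6-deficient and 13.09 ± 0.15 (SD, n = 4) in control livers, a log2 difference of -3.57 (SE 0.72, 95% interval -5.30 to -1.84), or 11.9-fold lower in Trpm6-deficient livers (unadjusted p = 0.00206, adjusted p = 0.332 from limma). Cyp4a12b averaged 9.21 ± 1.58 (SD, n = 3) in Trpm6-deficient and 13.12 ± 0.16 (SD, n = 4) in control livers, a log2 difference of -3.91 (SE 0.68, 95% interval -5.54 to -2.28; unadjusted p = 0.00092, adjusted p = 0.232 from limma). These were the decreases ranked 5 and 4 by size over all probe sets. Without Trpm6-deficient 1, the liver with the highest values of the 3, Cyp4a12b was the 1 member to pass limma's test (log2 difference -4.70, adjusted p = 0.0643).

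The spread of the Cyp4a12 genes was on the side of the Trpm6-deficient livers. Trpm6-deficient 1 was 10.2-fold above Trpm6-deficient 3 for Cyp4a12a and 8.94-fold above it for Cyp4a12b, and Trpm6-deficient 2 lay between them for both. The controls stayed within 1.27-fold for Cyp4a12a and 1.31-fold for Cyp4a12b. For each of these genes the SD among Trpm6-deficient livers was larger than that of 99.9% of probe sets, whereas 57.7% and 60.9% of probe sets had a smaller SD among controls.

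Cyp4f14, a leukotriene B4 hydroxylase of mouse liver, read 12.07, 12.11 and 11.91 in Trpm6-deficient livers, against 11.99, 12.18, 12.20 and 12.16 in controls. Cyp4f15, its relative in the same gene cluster, read 11.66, 11.59 and 11.47 in Trpm6-deficient livers, against 11.51, 11.56, 11.54 and 11.60 in controls. The groups overlapped in both genes. The log2 difference was -0.10 (SE 0.08, 95% interval -0.29 to 0.08; unadjusted p = 0.227, adjusted p = 0.857 from limma) for Cyp4f14. It was 0.02 (SE 0.06, 95% interval -0.12 to 0.16; unadjusted p = 0.732, adjusted p = 0.968 from limma) for Cyp4f15. These were the narrowest intervals among the members.

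Whether the members differed from each other in their change was tested over the 15 pairs of the 6 brightest probe sets, by an exact two-sided permutation test of the within-array difference over the 35 assignments of the 7 arrays. The smallest p this design allows is 0.0286, and 10 of 15 pairs reached it. The 95% intervals beside these p-values are from a t-distribution with the spread pooled over both groups, and not from the permutation test. The change of Cyp4a14 exceeded that of the shared Cyp4a32, Cyp4a31 and Cyp4a10 probe set by 1.77 log2 units (95% interval 0.80 to 2.73, exact permutation p = 0.0286). The change of Cyp4a14 exceeded that of Cyp4a12a by 6.45 and that of Cyp4a12b by 6.79 (exact permutation p = 0.0286 for each). Cyp4a12a and Cyp4a12b differed by 0.34 (95% interval 0.13 to 0.55, exact permutation p = 0.0286), with Cyp4a12b the lower. Whether the probes of these near-identical copies differ in their response was not tested. Against Cyp4f14, the changes differed by 2.98 for Cyp4a14 (exact permutation p = 0.0571), by 1.21 for the shared probe set (exact permutation p = 0.0571), by -3.47 for Cyp4a12a and by -3.81 for Cyp4a12b (exact permutation p = 0.0286 for both). Cyp4f14 and Cyp4f15 differed by -0.12 (95% interval -0.26 to 0.02, exact permutation p = 0.114). The genes were chosen with earlier results of these data known, so these p-values are not corrected for that choice.

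The Cyp4a probe sets ordered the control mice alike at both ends. Control 2 was the highest and control 3 the lowest control for all 6 Cyp4a probe sets, including Cyp4a12a and Cyp4a12b, in which controls differed by only 0.34 and 0.39 log2 units. This order was noticed in the data. It held for 6.74% of all probe sets, for 4 of 30 measured other PPARA targets and for 4 of 24 measured peroxisomal genes. Among these listed genes, the widest control range was 1.43 log2 units, for Vnn1, a pantetheinase gene induced by PPARA. Next were Ehhadh, the peroxisomal bifunctional enzyme (0.62), and Acsl5, an acyl-CoA synthetase (0.58), and the narrowest was Slc27a4 (0.06). For Cyp4f14 and Cyp4f15 control 1 was the lowest. Probe sets of related genes share sequence and all come from the same 4 arrays, so the 6 orders are not separate observations.

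The direction of every Cyp4a difference was the same at both ages. Among mice of 12 weeks (1 Trpm6-deficient, 2 controls) the log2 difference was 2.33 for Cyp4a14, -3.51 for Cyp4a12a and -4.03 for Cyp4a12b. Among mice of 13 weeks (2 Trpm6-deficient, 2 controls) it was 3.53 for Cyp4a14, -3.57 for Cyp4a12a and -3.80 for Cyp4a12b. The shared probe set differed by 1.11 at 12 weeks and 1.28 at 13 weeks. Cyp4f14 differed by 0.02 at 12 weeks and by -0.19 at 13 weeks.

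On chromosome 4 the 6 Cyp4a members lie in 1 cluster, and the direction of the difference changed within it. In RefSeq order Cyp4a12a and Cyp4a12b are followed by Cyp4a30b, which was not measured alone, and then by Cyp4a14, Cyp4a10, Cyp4a31 and Cyp4a32. Cyp4x1 on the side of Cyp4a12a differed by 0.05, and Cyp4b1 on the side of Cyp4a32 by -0.32 (unadjusted p = 0.284, adjusted p = 0.874 from limma). Cyp4b1, a P450 of lung known for activating protoxins, read 8.51, 8.99 and 8.53 in Trpm6-deficient livers, against 8.31, 9.37, 9.13 and 9.17 in controls. The nearest other genes, taken by position, differed by 0.37 (Pdzk1ip1, a membrane protein of epithelia; unadjusted p = 0.0343, adjusted p = 0.685 from limma) and 0.03 (Efcab14). Cyp4f14 and Cyp4f15 lie on chromosome 17 with Cyp4f13, Cyp4f16, Cyp4f37 and Cyp4f40, whose differences were -0.01, 0.11, -0.06 and -0.09. Of 8 further Cyp4 genes measured, out of 11 listed, none reached an unadjusted p of 0.05, and the differences of the remaining pair were -0.04 for Cyp4f18 and 0.11 for Cyp4f39. Cyp4f37 averaged 4.82 in Trpm6-deficient and 4.89 in control livers, below the lower quartile of every array. The group means of Cyp4f40, Cyp4x1, Cyp4f18 and Cyp4f39 lay between 5.30 and 5.84, below the median of every array. A small difference at such low signal does not show that a gene is unchanged.

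**Figure D2:**
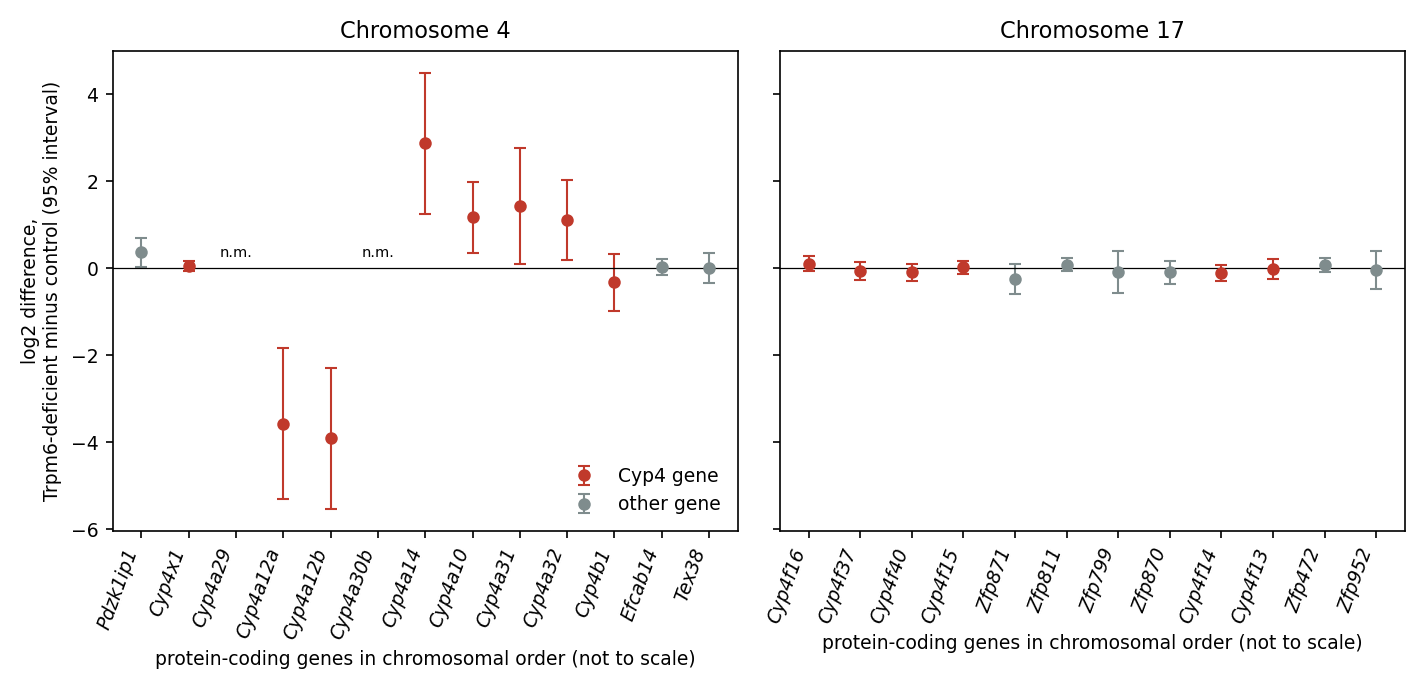
Log2 difference, Trpm6-deficient minus control (points, with 95% intervals from limma as bars), of protein-coding genes in RefSeq order along the Cyp4 clusters of chromosomes 4 and 17, not to scale. The point at Cyp4a32 is the probe set shared with Cyp4a31 and Cyp4a10, n.m. marks genes not measured alone, Cyp4a12a and Cyp4a12b lie at -3.57 and -3.91, and Cyp4a14 lies at 2.88.

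The electron donors and the dehydrogenases that act with and after Cyp4 enzymes held no gene past limma's test. For these and the following lists, the shares of all probe sets at the unadjusted threshold were 3.85% higher and 3.03% lower. Of 4 measured electron donors of microsomal P450 out of 5 listed, none reached an unadjusted p of 0.05, and their median log2 difference was 0.03. Por, the P450 reductase, was not measured alone. Of 9 alcohol and aldehyde dehydrogenases, none passed limma's test and 1 was lower at the unadjusted threshold, with a median of 0.09. This was Adh4, an alcohol dehydrogenase that also oxidizes retinol (log2 difference -0.61, unadjusted p = 0.0448, adjusted p = 0.712 from limma). Aldh3a2, the fatty aldehyde dehydrogenase, read 11.24, 11.59 and 10.73 in Trpm6-deficient livers, against 11.21, 11.22, 10.79 and 11.12 in controls (log2 difference 0.10).

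Of 24 measured genes of peroxisomal oxidation out of 27 listed, 1 rose, and at the unadjusted threshold 6 were higher, Abcd2 included, and 3 lower. The median was -0.13, beside 0.00 over all probe sets, of which 3.85% were higher and 3.03% lower at that threshold. Abcd2, a peroxisomal transporter of fatty acyl-CoA, rose to 9.66, 10.05 and 9.43 in Trpm6-deficient livers, against 7.08, 7.16, 6.22 and 7.53 in controls (log2 difference 2.72, SE 0.32, adjusted p = 0.0879 from limma). The groups were apart by more than the range of either, but the call was lost with any 1 of the 7 mice left out (adjusted p between 0.164 and 0.283 from limma). Acot3 and Acot4, peroxisomal thioesterases, differed by 2.19 and 1.19 (unadjusted p = 0.000599 and 0.0011, adjusted p = 0.192 and 0.258 from limma). Pex11a, a peroxisome proliferation gene, differed by -0.45 (adjusted p = 0.351 from limma). Ehhadh, the bifunctional enzyme of peroxisomal beta-oxidation, read 12.00, 11.96 and 11.70 in Trpm6-deficient livers, against 11.39, 11.51, 10.89 and 11.20 in controls (log2 difference 0.64, unadjusted p = 0.00639, adjusted p = 0.455 from limma).

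The receptor gene Ppara read 10.70, 11.12 and 10.52 in Trpm6-deficient livers, against 10.98, 11.29, 11.47 and 11.05 in controls (log2 difference -0.42, unadjusted p = 0.056, adjusted p = 0.754 from limma). Of 11 measured genes of PPARA and its partners out of 13 listed, none passed limma's test, 2 were higher and 3 lower at the unadjusted threshold, and the median was -0.18. Ppargc1a, a coactivator, differed by 0.94 and the retinoid X receptor gene Rxrb by -0.24 (adjusted p = 0.562 and 0.645 from limma). Fabp1, the fatty acid binding protein of hepatocytes, differed by -0.53 (adjusted p = 0.697 from limma). Of 30 measured other PPARA targets out of 32 listed, none passed limma's test, 2 were higher and 2 lower at the unadjusted threshold, and the median was -0.04. Pdk4, the kinase that restrains pyruvate dehydrogenase, read 10.24, 10.10 and 9.89 in Trpm6-deficient livers, against 8.89, 8.56, 7.59 and 9.17 in controls (log2 difference 1.52, adjusted p = 0.429 from limma). Creb3l3, a transcription factor of the fasting response, and Cpt1a, the carnitine palmitoyltransferase of the mitochondrial outer membrane, differed the other way, by -0.56 and -0.46 (adjusted p = 0.261 and 0.432 from limma).

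Of 22 measured genes of arachidonic acid and leukotriene metabolism out of 24 listed, 1 fell, and 2 were higher and 4 lower, Cyp2u1 included, at the unadjusted threshold, with a median of -0.02. Cyp2u1, another fatty acid hydroxylase, fell to 8.88, 8.46 and 8.66 in Trpm6-deficient livers, against 9.74, 10.21, 10.10 and 10.08 in controls (log2 difference -1.37, SE 0.14, adjusted p = 0.0697 from limma). This call held without Trpm6-deficient 1 (adjusted p = 0.0802 from limma) and was lost with any other mouse left out (0.129 to 0.287). Cyp2c39 and Cyp2c38, P450 genes of the arachidonate-metabolizing Cyp2c subfamily, differed by 2.30 and 1.93 (adjusted p = 0.119 and 0.132 from limma). Cyp2j6, a P450 of the Cyp2j subfamily, differed by -0.29 (adjusted p = 0.685 from limma). Genes of liver zones were listed as well. Of 14 measured pericentral genes 4 were higher and 2 lower at the unadjusted threshold (median 0.02), and of 11 measured periportal genes 4 were higher and 0 lower (median 0.16), with no gene past limma's test. The pericentral gene Lect2, a secreted hepatocyte protein, differed by 0.55 and the periportal gene Uroc1, urocanate hydratase, by 0.52 (adjusted p = 0.126 and 0.294 from limma).

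**Figure D3:**
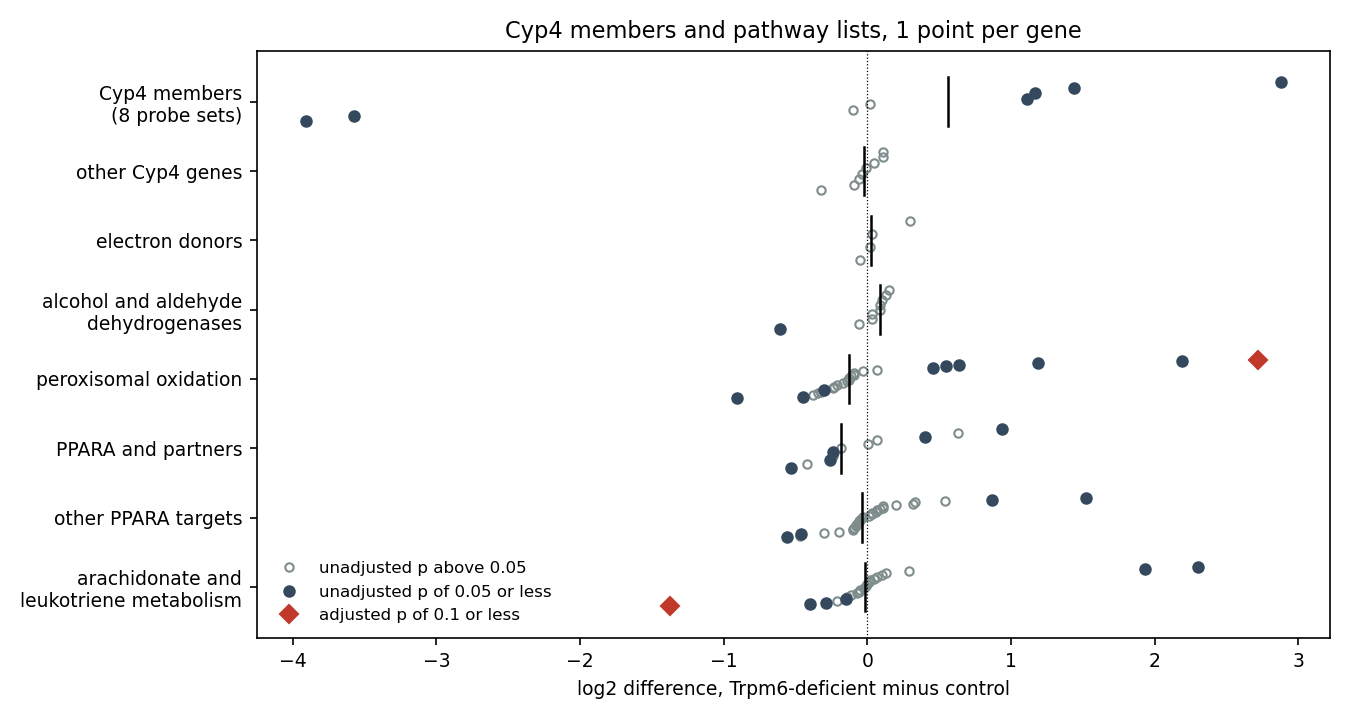
Log2 difference, Trpm6-deficient minus control, with 1 point per gene for the 8 Cyp4 probe sets and the pathway lists, and the median of each list as a vertical bar. The Cyp4 members reach from -3.91 to 2.88 with none at an adjusted p of 0.1 or less from limma, and Abcd2 (2.72) and Cyp2u1 (-1.37) are the 2 genes drawn past that threshold.

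Profiles most like those of Cyp4a14 and Cyp4a12a were found by the root mean square difference between log2 values centred on each probe set's mean over the 7 mice, among probe sets of other genes with 1 symbol. The measure is a description over 7 arrays, and it takes in the difference between the groups. Nearest to Cyp4a14 were Acnat2, a peroxisomal acyltransferase that conjugates fatty acids to amino acids (0.66 log2 units), Abcd2 (0.70) and Slc22a27, an organic anion transporter gene (0.71), where Cyp4a14 itself varied by 1.66 around its mean. Acnat2 read 10.85, 11.45 and 11.31 in Trpm6-deficient livers, against 9.44, 9.90, 8.48 and 9.17 in controls (log2 difference 1.96, adjusted p = 0.232 from limma). As in Cyp4a14, control 2 was the highest and control 3 the lowest control for Acnat2 and for Slc22a27, whose controls, at 4.30 to 4.82, lay below the lower quartile of every array. Both genes were chosen for closeness to Cyp4a14 over the same 7 arrays, so a shared order is partly built into the choice.

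Nearest to Cyp4a12a were Nat8f5, an N-acetyltransferase family gene (0.52 log2 units), Cyp7b1, an oxysterol hydroxylase (0.72), and Mup21, a major urinary protein gene (0.81), where Cyp4a12a itself varied by 1.98. Nat8f5 read 8.36, 7.15 and 6.30 in Trpm6-deficient livers, against 10.56, 10.62, 9.66 and 10.08 in controls (log2 difference -2.96, adjusted p = 0.22 from limma). Cyp7b1 fell to 9.53, 10.03 and 8.58 in Trpm6-deficient livers, against 12.58, 12.71, 12.71 and 12.46 in controls (log2 difference -3.23, adjusted p = 0.066 from limma), a call that was lost under 8 of 16 alternatives, namely without Trpm6-deficient 1 or any 1 of the controls, with age as a covariate, with the replicate block and in an unmoderated gene-wise test (adjusted p up to 0.388). Mup21 read 8.85, 8.04 and 6.65 in Trpm6-deficient livers, against 9.96, 10.06, 9.68 and 9.94 in controls (log2 difference -2.06, adjusted p = 0.415 from limma). Trpm6-deficient 3 was the lowest liver for Cyp4a12a, Cyp4a12b, Nat8f5, Cyp7b1 and Mup21. For Nat8f5, Cyp7b1 and Mup21 this is partly built into their choice by closeness to Cyp4a12a.

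**Figure D4:**
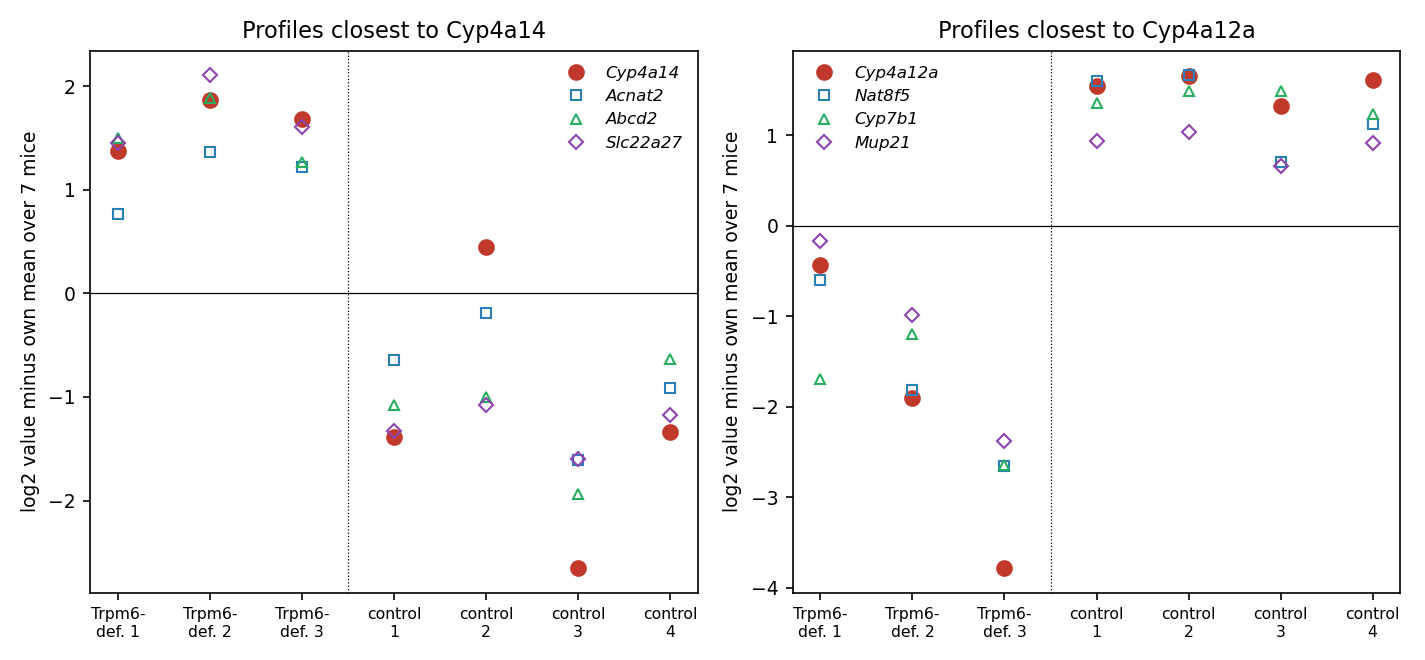
Log2 value minus the gene's own mean over the 7 mice for Cyp4a14 (left) and Cyp4a12a (right) with the 3 probe sets nearest to each, by mouse, Trpm6-deficient 1 to 3 left of the dotted line and control 1 to 4 right of it. Control 3 is the lowest mouse of the left panel for all 4 genes and Trpm6-deficient 3 the lowest of the right panel for all 4, which the choice by closeness partly builds in.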

How the data were processed

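Total RNA of the left liver lobe (100 ng per mouse) was hybridized by the study to Affymetrix Mouse Gene 1.0 ST arrays. Per the labels, the authors ran RMA in Affymetrix Expression Console 1.4.0, and the deposited values are log2 expression per probe set. Platform annotation gave 1 symbol for 21789 probe sets, several for 1621 and none for 12146, and a probe set with symbols of other genes was not used. The 35556 probe sets were fitted as deposited with limma 3.58.1 in R 4.3.3 (lmFit and eBayes), Trpm6-deficient minus control, without a covariate, with Benjamini-Hochberg adjustment over all of them and a threshold of 0.1. Python 3.11.15, NumPy 2.4.6, pandas 2.3.3, SciPy 1.17.1 and matplotlib 3.10.9 were used for the exact tests, lists and plots, and the scripts were tested on simulated data. Genes named by rule are all members, all other measured Cyp4 genes and the nearest profiles. Of each list they are those past the threshold, up to 3 with the smallest unadjusted p at 0.05 or less and preset standard components. Also named are Trpm6, neighbours of the clusters, some cell type markers, flagged genes and some genes with the Cyp4a control order. Members and lists were chosen with earlier results of these data known. Alternatives covered age, the replicate block, a filter, normalization, the prior, array weights, the threshold, an unmoderated gene-wise test, the mean of a gene's probe sets and each mouse left out. The number of arrays limits the precision. Mice are the replicates.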

Additional observations from a re-analysis of the deposited data

Results flagged for a closer look

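In 4 genes 1 control stood apart from the other 3. Creb3l3, a transcription factor of the fasting response, was at 10.80 in control 3 and at 10.79 in the other controls. Cyp4f16 was at 6.79 in control 1 and at 6.87 in the others, Cyp4f18 was at 5.79 in control 3 and at 5.78 in the others, and Cyp4x1 was at 5.33 in control 2 and at 5.39 in the others. These gaps are at most 0.08 log2 units, and the deposited values have 2 decimals. In each of these genes the other 3 controls share 1 value at that precision, so any different value stands apart from them. Of 45 control groups examined 4 were set apart in this way, and none of the 8 Cyp4 member probe sets was among them. With such ties this count cannot be set against a rate expected by chance.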

How the results depend on the processing

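With 1 mouse left out in turn, 0 to 1 of the 6 brightest Cyp4 probe sets reached an adjusted p of 0.1 in limma's test, and the 1 was Cyp4a12b without Trpm6-deficient 1 (log2 difference -4.70, adjusted p = 0.0643). None passed under the other alternatives. At an unadjusted threshold of 0.05, 3 or 4 of the 6 probe sets were counted under every alternative that kept them, beside 4. With the mean of a gene's probe sets it was 6, counted over 8 genes. The log2 difference with 1 mouse left out lay between 2.40 and 3.44 for Cyp4a14, between 0.89 and 1.43 for the shared Cyp4a32, Cyp4a31 and Cyp4a10 probe set, between -4.38 and -2.70 for Cyp4a12a and between -4.70 and -3.12 for Cyp4a12b. For Cyp4f15 it lay between -0.02 and 0.07, and it was -0.02 without Trpm6-deficient 1 and -0.00137 after quantile normalization, so its direction is not fixed.

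Over all probe sets 46 passed, 8 with age as a covariate, 70 among those averaging 5 or more on the log2 scale, 14 at the stricter threshold of 0.05 and 7 to 69 with 1 mouse left out. A gene-wise test without moderation gave 8. With the replicate number as a block 1 probe set passed and Cyp4a14 had a log2 difference of 2.84 (adjusted p = 0.423 from limma). Same-numbered arrays deviated from their group means with correlations of 0.335, 0.26 and 0.088. For Trpm6-deficient 1 and 2 the best match was the control of the same number, whereas Trpm6-deficient 3 correlated best with control 4 (0.226). Nothing in the labels says that the numbers pair the mice, and they were not taken to do so. Whether same-numbered arrays were processed together is not known. Of the genes of the pathway lists 2 passed, beside 5 over the probe sets with a mean of 5 or more, 4 after quantile normalization, 1 with array weights and 0 with age, the block, the gene-wise test or the stricter threshold. With 1 mouse left out the lists held 0 to 2. The causes of these shifts were not tested. With 1 mouse left out, 0 of 15 pairs of members reached p = 0.05 in the exact permutation test, whose smallest p is then 0.0667 or 0.1, so this says nothing about their stability. The number of arrays limits all of these values.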

Other observations

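The probe set that carries both Cyp4v3, a fatty acid hydroxylase whose human counterpart is mutated in Bietti crystalline dystrophy, and Klkb1, the plasma prekallikrein gene of hepatocytes, belongs to no count above. It read 12.22, 12.02 and 11.77 in Trpm6-deficient livers, against 12.50, 12.35, 12.29 and 12.46 in control livers. All 3 Trpm6-deficient livers lay below the controls (log2 difference -0.40, SE 0.11, unadjusted p = 0.0119, adjusted p = 0.577 from limma). The signal of Cyp4v3 and that of Klkb1 cannot be told apart in it.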
